A study of Sus scrofa with 14 samples.

Results

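The genes described here build the shape and the contacts of epithelial and other cells: keratins, cadherins, protocadherins, desmosomal proteins, claudins, the tight junction scaffold TJP1 and connexins. They were taken by symbol from the probe-to-gene table of the array, as every single symbol of those gene families (KRT, CDH, PCDH, DSC, DSG, PKP, CLDN, TJP, GJA, GJB, GJC and GJD), leaving out CLDN2, CLDN7, CLDN8 and CDH5. This gave 64 genes of 10882 named genes, and the rule for a gene used its symbol alone. Where a symbol had more than 1 row, the row with the highest mean log2 intensity over all arrays stood for it, which applied to 5 genes. By family there were 22 keratins, 12 cadherins, 6 protocadherins, 3 desmosomal genes (DSC1, DSC2 and PKP2), 11 claudins, TJP1 and 9 connexins.

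Keratins form the intermediate filaments of epithelial cells, and each kind of epithelium uses its own pairs, so that simple glandular epithelium, stratified epidermis and hair can be told apart by them. Cadherins hold neighbouring cells together in adherens junctions, and desmosomes tie the keratin filaments of adjacent cells to each other. Claudins seal the space between cells in tight junctions, and connexins form gap junctions, the channels through which neighbouring cells exchange ions and small molecules. The stomach lining is a simple columnar epithelium that has to hold a barrier against acid.

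The samples came from 7 unrelated male weaned pigs, a cross of Large White and Landrace, 5 to 6 weeks old and weighing 11.1 kg on average, each kept alone and given a post-weaning feed for 5 days. From each pig 1 sample was cut from the oxyntic mucosa (OXY), the acid-secreting gland region beside the greater curvature, and 1 from the pyloric mucosa (PYL), the mucus and gastrin producing region next to the sphincter, giving 7 OXY and 7 PYL arrays from the same animals. No pig was treated, and the comparison asks how the gene expression of both regions of a normal young stomach differs. The methods describe sections through the whole wall, so each sample can hold muscle, vessels and nerve besides epithelium, and fewer cells of a type cannot be told apart from less RNA per cell.

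Most marker genes of both regions followed the labels. Of the 5 measured genes listed here as parietal cell markers, 4 were more expressed in OXY. PYL had more of 3 of the 4 genes listed for pyloric gland and endocrine cells. The remaining ones leaned the other way. GIF was higher in PYL in all 7 pigs (limma adjusted p = 0.075), and MUC6 was higher in OXY in 5 of 7 pigs (adjusted p = 0.20). The arrays fell into 2 sets, pigs 1 to 3 with a median log2 intensity between 4.83 and 4.92 and pigs 4 to 7 with 5.63 to 5.73, so levels are best read within a pig. The PYL arrays of pigs 4 and 7 stood apart: their Spearman correlation over all rows was 0.989 with each other but 0.954 to 0.965 with the PYL arrays of pigs 5 and 6. Where these pigs decided a call or most of a value of a named gene of these families, the value without them is given. Both pigs were picked from these same arrays, so calls made without them depend on that choice.

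Most keratin and junction genes did not differ detectably between the mucosae, and those that did were few. KRT20 was more expressed in PYL, whereas OXY had more of the protocadherins PCDH17 and PCDH12. Thus 2 of 64 genes (3.12%) passed in favour of OXY, beside 6.88% of all rows, and 1 of 64 (1.56%) in favour of PYL, beside 4.46% of all rows, and 61 passed in neither direction (limma with pig as a block, Benjamini-Hochberg adjusted p under 0.05 over all 27460 rows). At an unadjusted p under 0.05 there were 3 genes higher in OXY (4.69%, beside 13% of all rows) and 5 higher in PYL (7.81%, beside 12.6%). The change, always given as OXY minus PYL on the log2 scale, was smaller than 0.25 in size in 55 of the 64 genes, and its median was 0.00, beside -0.01 over all rows.

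**Figure D1:**
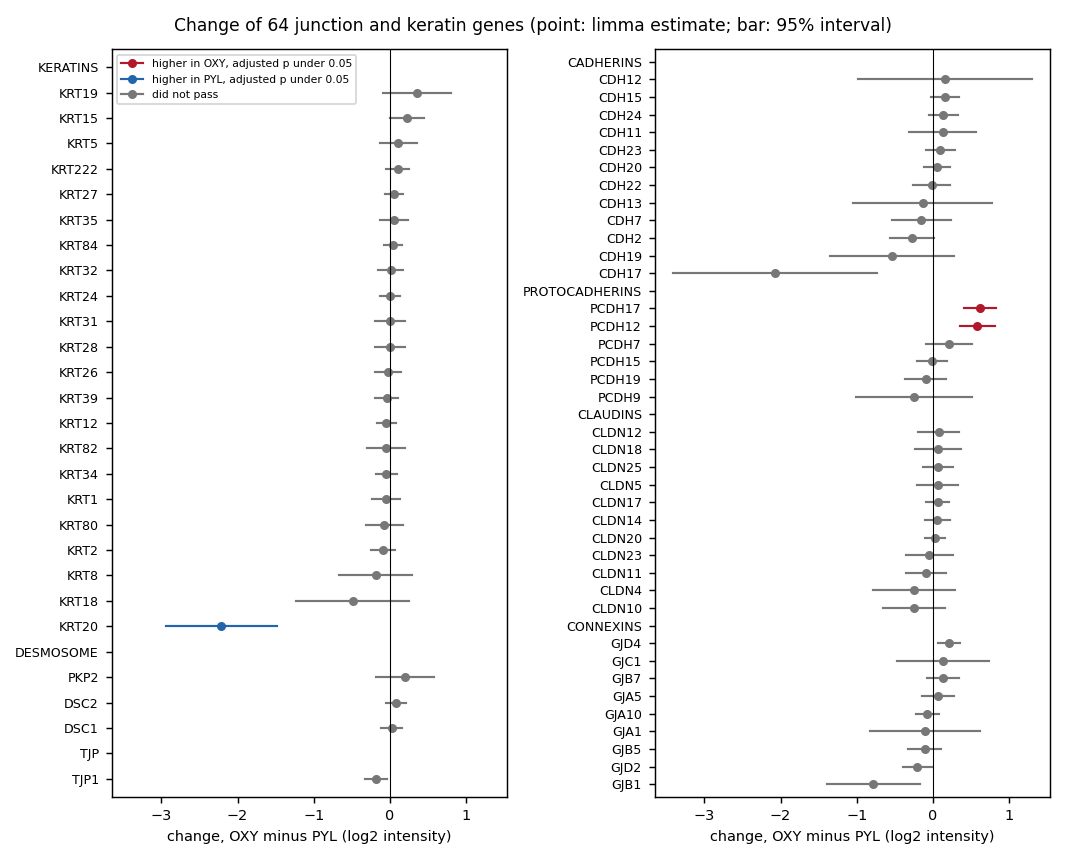
Change of each of the 64 genes between OXY and PYL (horizontal axis, OXY minus PYL in log2 intensity, points to the right are higher in OXY), grouped by family. Points are limma estimates over 7 pigs and bars their 95% intervals, and most estimates lie close to 0, with KRT20 (-2.21) and CDH17 (-2.08) far to the left.

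Many of these genes were dim on the array. The dimmest 1 in 3 of all rows by mean log2 intensity lay below 4.21 and are called dim rows here. Of the 64 genes, 29 were dim rows, and none of those 29 passed the test. All 6 keratins of squamous and other epidermal epithelium (KRT1, KRT2, KRT5, KRT12, KRT15 and KRT24) were dim rows, and so were 8 of the 10 keratins of hair and root sheath. The 6 measured markers of stratified squamous epithelium also gave no call in either direction. Of these, 4 were dim rows, but EVPL and PPL were not. PPL was higher in PYL in all 7 pigs (OXY minus PYL -0.43 in log2, limma adjusted p = 0.075). For the dim genes a difference was not detectable here, which does not show that the mucosae were alike.

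Among the keratins of simple epithelium, KRT20 (row 15207493) separated the mucosae most. KRT20 belongs to the surface (foveolar) epithelium of the stomach and to intestinal epithelium, where it is made by mature cells. Its log2 intensity ran from 5.98 over a median of 8.32 to 9.11 in OXY, against 9.47, 9.81 and 11.17 in PYL. Every PYL array was above every OXY array, and KRT20 was the only one of the 64 genes whose ranges did not overlap (1.56%, beside 0.415% of all rows in favour of PYL and 0.889% in favour of OXY). The within-pig differences were -2.17, -3.74, -2.35, -2.11, -2.48, -2.28 and -0.36 in pigs 1 to 7, so 6 pigs differed by more than 2 log2 units and pig 7 by far less. The mean was 7.98 ± 1.06 in OXY and 10.19 ± 0.70 in PYL (SD, n = 7 each), a 4.63-fold higher intensity in PYL (change -2.21, SE 0.32, 95% interval -2.94 to -1.49, limma adjusted p = 0.0032). The exact two-sided sign-flip permutation test over pigs gave p = 0.016, the smallest value 7 pigs can give.

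VIL1, a microvillus protein listed here with the intestinal epithelium, moved the same way as KRT20 (change -1.95, SE 0.32, limma adjusted p = 0.0059). It was the only one of 7 measured intestinal markers to pass, and CDX1, CDX2, FABP2, SI and APOA4 were dim rows in this tissue. MUC2, the remaining one and a mucin of goblet cells, was not dim and had a change of 0.84 (SE 0.59, limma adjusted p = 0.43), with 3.36 in pig 6 and 3.25 in pig 7 and at most 1.22 in the other pigs. The summed linear intensity of the 7 intestinal markers ranged from 118 to 806 in OXY and from 456 to 1177 in PYL. None of the 3 measured surface mucous cell markers of the list of 6 passed (median change -0.14). GKN2 was higher in PYL in all 7 pigs (change -0.14, limma adjusted p = 0.15), GKN1 in 5 and MUC1 in 4 of them.

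The other keratins of simple epithelium did not pass over 7 pigs. KRT80 and KRT222 were dim rows, and KRT8, KRT18 and KRT19 had their 2 highest differences in pigs 4 and 7. KRT8 and KRT18 are partners in the keratin filaments of glandular epithelium. KRT18 ran from 7.87 over 8.43 to 9.26 in OXY, against 7.87, 9.29 and 9.89 in PYL. It was lower in OXY than in PYL in pigs 1, 2, 3, 5 and 6, by -0.75 to -1.59, but higher in OXY in pig 4 (0.37) and pig 7 (1.37). Its change was -0.49 (SE 0.32, limma adjusted p = 0.40) over all pigs and -1.03 (adjusted p = 0.0023) without pigs 4 and 7.

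KRT8 had 10.23, 10.64 and 11.31 as lowest, median and highest value in OXY, against 10.19, 10.99 and 11.28 in PYL, nearly the same span. Its change was -0.19 (SE 0.21, limma adjusted p = 0.64), and -0.50 (adjusted p = 0.043) without pigs 4 and 7. KRT19, a keratin of most simple and ductal epithelia, averaged 11.50 ± 0.43 in OXY and 11.14 ± 0.34 in PYL (SD, n = 7 each), a change of 0.36 (95% interval -0.09 to 0.80, adjusted p = 0.29). It was higher in OXY in 5 of 7 pigs, and without pigs 4 and 7 the change was 0.075 (adjusted p = 0.81). Thus KRT20 was the single keratin called over 7 pigs. KRT8 and KRT18 joined it in PYL in the 5 pigs left without pigs 4 and 7. Leaving out these pigs removed the only differences of both genes in favour of OXY. KRT18 was also called in PYL in pigs 1 to 3 alone (-1.17, limma adjusted p = 0.035).

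Type I keratin genes other than KRT18 lie together in the pig genome, and the RefSeq annotation of Sscrofa11.1 was used for their order alone. The measured keratins on either side of KRT20 in this cluster are KRT39 and KRT12, whose changes were -0.04 and -0.05, and both are dim. The changes of the other measured keratins of that cluster lay between -0.05 and 0.36. In the second cluster KRT8 and KRT18 are neighbours at its end, and the other measured keratins there ranged from -0.09 to 0.11.

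**Figure D2:**
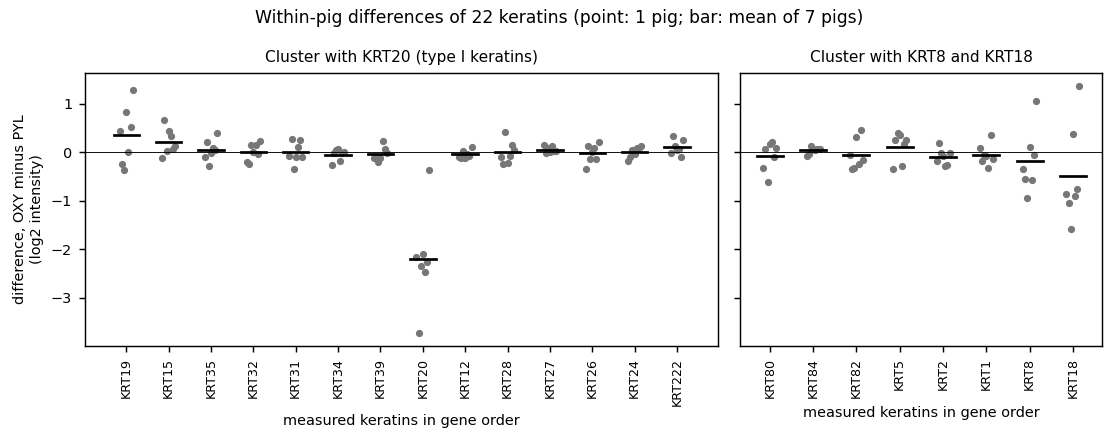
Within-pig difference of each of the 22 keratins (vertical axis, OXY minus PYL in log2 intensity), with genes set in their order along the genome within their 2 clusters and spaced evenly. Each point is 1 of 7 pigs and each bar the mean, and KRT20 alone lies well below its neighbours, while KRT8 and KRT18 show points on both sides of 0.

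Of the cadherins, none passed the adjusted test over 7 pigs, although CDH17 had a change nearly as large as that of KRT20. CDH17, the liver-intestine cadherin, is an adhesion molecule of intestinal epithelium. Its log2 intensity was 3.79 at the lowest, 5.99 at the median and 7.40 at the highest in OXY, against 6.46, 7.53 and 8.63 in PYL. The within-pig differences were -3.48, -3.61, -4.15, -0.71, -2.34, -1.18 and 0.94 in pigs 1 to 7, so 6 of 7 pigs had more in PYL and pig 7 had more in OXY. The change was -2.08 (SE 0.59, 95% interval -3.42 to -0.74, limma adjusted p = 0.057), a 4.22-fold higher intensity in PYL, and the exact sign-flip permutation test gave p = 0.047.

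CDH17 passed in favour of PYL without pig 7 (change -2.58, limma adjusted p = 0.012), without pigs 4 and 7 (-2.95, adjusted p = 0.0035) and without the pig block (adjusted p = 0.031). By array set its change was -3.75 in pigs 1 to 3 (adjusted p = 0.0032) and -0.82 in pigs 4 to 7 (adjusted p = 0.41), and the difference between the sets was not tested. In OXY the values were 3.79 to 4.48 in pigs 1 to 3 and 5.99 to 7.40 in pigs 4 to 7. This gap exceeded the shift of the array medians, but other rows of low intensity had a similar one. In OXY, KRT32 had 3.42 to 3.70 against 5.35 to 5.47, and CDX2 2.60 to 2.72 against 4.21 to 4.45. A difference between the pigs thus cannot be told apart from that between the array sets. The intestinal markers given beside KRT20 apply to CDH17 as well, and their part in either result was not tested.

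**Figure D3:**
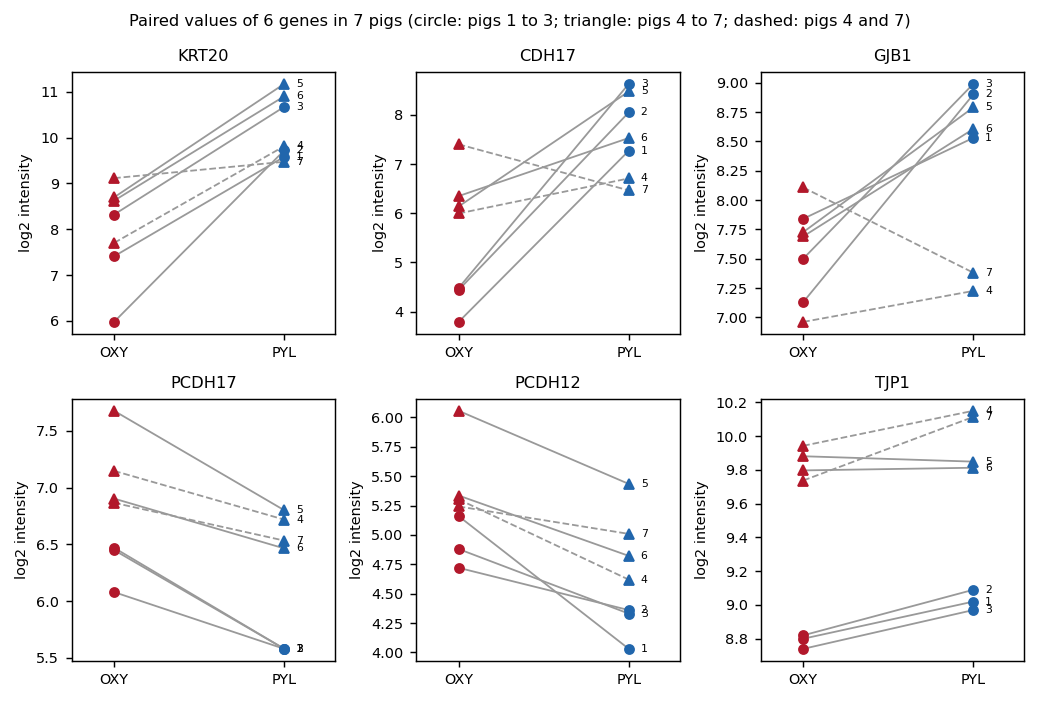
Log2 intensity of 6 genes in OXY (left, red) and PYL (right, blue) of each of 7 pigs, with a line for each pig, circles for pigs 1 to 3, triangles for pigs 4 to 7 and dashed lines for pigs 4 and 7. KRT20 was lower in OXY than in PYL in every pig, PCDH17 and PCDH12 were higher in OXY in every pig, and CDH17 and GJB1 run against the other pigs in pig 7.

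The changes of the remaining 11 cadherins lay between -0.54 and 0.16, and none passed. They include CDH11, typical of mesenchymal cells, CDH13, a cadherin without a cytoplasmic tail found on muscle and vessels, and CDH19, known from glial and Schwann cells. CDH12 showed the widest spread, with an SD of within-pig differences of 1.57. Its log2 intensity was 4.45 to 5.97 in OXY, against 3.21 to 7.55 in PYL, where the 2 highest values, 7.55 and 7.00, belonged to pigs 4 and 7 and the other 5 reached at most 4.63. The change of CDH12 was 0.16 (limma adjusted p = 0.88) over 7 pigs and 1.01 (adjusted p = 0.046) without pigs 4 and 7. Without pigs 4 and 7 the change was -0.031 for CDH19, 0.42 for CDH13 and 0.40 for CDH11, and none of these passed. CDH2, the neural cadherin, had a change of -0.28 (SE 0.13, adjusted p = 0.21), and of -0.12 without pigs 4 and 7.

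Both genes that were more expressed in OXY were protocadherins. PCDH12 is a vascular protocadherin found at contacts of endothelial cells, and PCDH17 is best known from nervous tissue. For PCDH17 (row 15204107) the lowest, median and highest log2 intensity was 6.08, 6.87 and 7.68 in OXY, against 5.58, 6.46 and 6.80 in PYL. The ranges overlapped, but each pig was higher in OXY, by 0.50, 0.87, 0.89, 0.43, 0.88, 0.44 and 0.33. The change was 0.62 (SE 0.09, 95% interval 0.41 to 0.83, limma adjusted p = 0.0035, exact sign-flip permutation p = 0.016), or 1.54-fold.

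PCDH12 (row 15259858) had a lowest, median and highest log2 intensity of 4.72, 5.24 and 6.06 in OXY, against 4.03, 4.62 and 5.43 in PYL. The difference was 1.13 in pig 1 and between 0.23 and 0.68 in the other 6 pigs, and OXY was higher in all 7. The change was 0.58 (SE 0.10, 95% interval 0.35 to 0.82, limma adjusted p = 0.0079). Without the pig block neither gene passed (adjusted p = 0.63 for PCDH17 and 0.52 for PCDH12), and the level of both was lower on all arrays of pigs 1 to 3 than on the arrays of the same mucosa of pigs 4 to 7. Both passed when any single pig was left out.

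The endothelial markers moved with these protocadherins. OXY had more of all 4 measured markers of the list of 7, KDR by 1.17, TEK by 0.91, VWF by 0.64 and PECAM1 by 0.43, and the summed linear intensity was 1112 to 2860 in OXY and 540 to 1881 in PYL. The median difference of the 4 was 0.75, 1.08, 1.13, 0.43, 1.00, 0.92 and 0.15 in pigs 1 to 7, lowest in pigs 7 and 4. PCDH17 was likewise lowest in those pigs, whereas PCDH12 had its second highest difference in pig 4 (0.68) and its second lowest in pig 2 (0.36). The part of endothelial cells in the change of PCDH17 and PCDH12 was not tested. CLDN5, the claudin of endothelial tight junctions, did not pass, with a change of 0.06 (95% interval -0.21 to 0.33, limma adjusted p = 0.80).

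The other 4 protocadherins did not pass, with changes from -0.24 (PCDH9) to 0.21 (PCDH7). PCDH9, a protocadherin of neurons, had 2.63 to 5.29 in OXY and 2.97 to 6.22 in PYL, and a change of 0.20 without pigs 4 and 7.

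Among the claudins none of 11 passed, and their changes ran from -0.25 to 0.08. CLDN18 is the claudin of gastric epithelium. Its log2 intensity was 11.02, 11.82 and 11.94 (lowest, median and highest) in OXY, against 11.26, 11.45 and 11.92 in PYL. The within-pig differences ran from -0.44 to 0.68, highest in pigs 7 and 4. The change was 0.07 with a 95% interval from -0.23 to 0.37 (limma adjusted p = 0.80), so a difference of more than 0.37 log2 units in either direction lies outside that interval. CLDN4, a claudin that lowers the permeability of tight junctions to sodium, had a change of -0.25 (95% interval -0.78 to 0.29, adjusted p = 0.57), with a wide span of within-pig differences from -1.41 in pig 1 to 0.69 in pig 7, and a change of -0.58 (adjusted p = 0.11) without pigs 4 and 7. CLDN12 (0.08), CLDN23 (-0.05) and CLDN10 (-0.25) also did not pass, and CLDN10 was a dim row. Without pigs 4 and 7 no claudin passed either, and the change was -0.14 for CLDN18, -0.0775 for CLDN12, -0.23 for CLDN23, -0.0135 for CLDN10 and 0.23 for CLDN5.

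TJP1, which anchors claudins and occludin to the actin cytoskeleton, had 8.74 to 9.94 in OXY and 8.97 to 10.15 in PYL. It was higher in PYL in 6 of 7 pigs, with pig 5 at 0.03, and the change of -0.18 (SE 0.06, 95% interval -0.33 to -0.04) did not pass (limma adjusted p = 0.11). Of the desmosomal genes, PKP2, a plakophilin that links desmosomal cadherins to the filaments, had a change of 0.20 (95% interval -0.18 to 0.57, adjusted p = 0.51; -0.0723 without pigs 4 and 7), and the desmocollin DSC2, a dim row, one of 0.08 (adjusted p = 0.42).

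Of the 9 connexins none passed over 7 pigs. GJB1, the connexin of liver and of gland epithelium in the gut, had 6.96, 7.69 and 8.11 as lowest, median and highest log2 intensity in OXY, against 7.23, 8.61 and 8.99 in PYL. Its differences were -0.69, -1.77, -1.49, -0.26, -1.06, -0.92 and 0.73 in pigs 1 to 7, so PYL was higher in 6 of 7 pigs. The change was -0.78 (SE 0.27, 95% interval -1.39 to -0.17, limma adjusted p = 0.11). It passed without pig 7 (-1.03, adjusted p = 0.012) and without pigs 4 and 7 (-1.19, adjusted p = 0.0033).

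GJA1, the connexin of muscle, fibroblasts and many other cells, had a change of -0.10 (SE 0.32, limma adjusted p = 0.88), with differences from -1.73 in pig 7 to 1.28 in pig 2, and of 0.36 (adjusted p = 0.38) without pigs 4 and 7. GJC1, a connexin of smooth muscle and vessels, had a change of 0.13 (adjusted p = 0.81), and of 0.58 (adjusted p = 0.027) without pigs 4 and 7. GJD4 came next to CDH17 in nearness to the threshold, with a change of 0.21 (SE 0.06, adjusted p = 0.064) and a higher value in OXY in 6 of 7 pigs. Its row is dim, and it passed after centering each array on its median (adjusted p = 0.034), after quantile normalization (0.043) and after scaling to RPL4 (0.049).

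Of the 64 genes, 19 set the PYL arrays of pigs 4 and 7 apart from those of the other pigs of their array set. Against the PYL arrays of pigs 5 and 6, those of pigs 4 and 7 were lower by more than 0.5, without overlap, in 10 genes (15.6%, beside 10.5% of all rows): KRT18 (-1.93), CDH17 (-1.42), GJB1 and KRT20 (-1.39 each), KRT8 (-1.04), CLDN4 (-0.97), KRT19 (-0.75), PKP2 (-0.65), and CLDN18 and CLDN23 (-0.57 each). They were higher in 9 genes (14.1%, beside 10.7%), CDH12 (3.04), PCDH9 (2.13), GJA1 (1.94), CDH19 (1.81), CDH13 (1.60), GJC1 (1.57), CDH11 (0.78), CDH7 (0.61) and PCDH7 (0.59). The other 45 genes did not meet this rule, among them TJP1 with a difference of 0.30 and CLDN12 with -0.46.

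In the OXY arrays of the same pigs only PCDH9 (0.96) and PCDH7 (0.56) stood apart upwards (3.12%, beside 2.09% of all rows) and no gene downwards (beside 1.04%). The PYL arrays of pigs 4 and 7 also had a high smooth muscle sum, 10324 and 8563 in linear intensity over 4 measured markers, against 4471 and 3561 in pigs 5 and 6. CNN1, TAGLN and SMTN were higher there, but ACTA2 was not. Its log2 intensity in PYL was 10.94 and 10.07 in pigs 4 and 7, against 10.96 and 10.78 in pigs 5 and 6. The 5 fibroblast markers summed to 17928 and 14210 in pigs 4 and 7, against 12692 and 10563 in pigs 5 and 6. The 4 measured markers of enteric neurons and glia summed to 335 and 161, against 131 and 133. The part of these cell types in the values of the keratin and junction genes was not tested.

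The within-pig differences use the same PYL arrays. In 13 of 64 genes (20.3%) pigs 4 and 7 had the 2 highest differences, beside 15.0% of all rows, and in 10 genes (15.6%) the 2 lowest, beside 14.7%. Among genes that are not dim rows, the shares were 12 of 35 (34.3%) beside 19.1% of rows, and 7 of 35 (20%) beside 18.3%. The SD of the within-pig differences had a median of 0.35 in those 35 genes and 0.28 over all rows that are not dim.

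**Figure D4:**
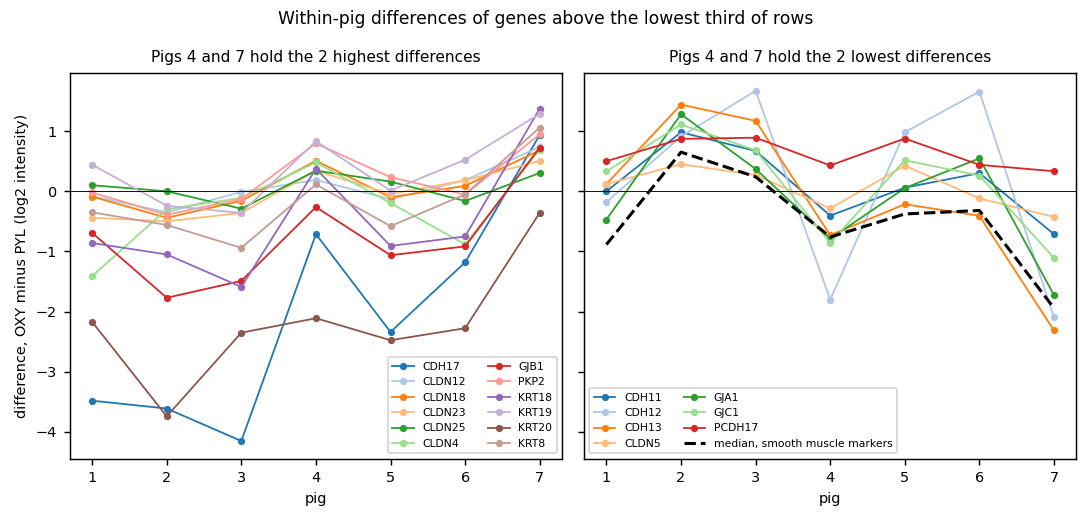
Within-pig difference (vertical axis, OXY minus PYL in log2 intensity) in pigs 1 to 7 for genes that are not dim rows and in which pigs 4 and 7 hold the 2 highest (left panel, 12 genes) or the 2 lowest differences (right panel, 7 genes), with the median of 4 smooth muscle markers dashed. Lines only join the points of a gene, and the genes were picked for this pattern, as in KRT18 with 0.37 and 1.37 in pigs 4 and 7 against -0.75 or lower in the other pigs.

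Without pigs 4 and 7, 4 genes were more expressed in OXY (6.25%, beside 6.71% of all rows), namely PCDH17, PCDH12, CDH12 and GJC1, and 5 in PYL (7.81%, beside 5.98%), namely KRT20, CDH17, GJB1, KRT18 and KRT8. All 3 genes called over 7 pigs were among them. In CDH12, GJC1 and PCDH17 pigs 4 and 7 had held the 2 lowest differences. In KRT20, CDH17, GJB1, KRT18 and KRT8 they had held the 2 highest, so leaving them out favours these calls. Without the pig block none of the 64 passed in OXY, beside 1.19% of rows, and KRT20 and CDH17 passed in PYL (3.12%, beside 0.546%). In pigs 1 to 3 alone KRT20, KRT18 and CDH17 were called in PYL (4.69%, beside 2.05% of rows) and PCDH17 in OXY (1.56%, beside 2.42%), and in pigs 4 to 7 alone none of the 64 was called, beside 2.5% of rows in OXY and 1.05% in PYL. The change of KRT20 was -1.80 there (limma adjusted p = 0.075).

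Genes whose products work beside the junction proteins were read as a list of junction partners. Of 49 measured, 42 passed in neither direction, and the median change of the list was -0.03. In favour of OXY 3 passed (beside 6.88% of all rows), and in favour of PYL 4 passed (beside 4.46%). In OXY these were PRKCI, the atypical protein kinase C of the polarity complex at tight junctions (change 0.92, SE 0.14, limma adjusted p = 0.0035), EZR or ezrin, which links membrane to actin in microvilli (0.64, SE 0.11, adjusted p = 0.0063), and the pannexin PANX2 (0.23, SE 0.06, adjusted p = 0.047). PRKCI and EZR were higher in OXY in all 7 pigs, and PANX2 lost its call when any pig but pig 5 was left out.

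In PYL the partners were NECTIN3, an adhesion molecule of adherens junctions (-0.91, SE 0.16, limma adjusted p = 0.0089), PERP, a desmosomal membrane protein (-0.72, SE 0.18, adjusted p = 0.032), AMOT, a scaffold at tight junctions (-0.52, SE 0.10, adjusted p = 0.014), and PARD3B, a polarity protein (-0.42, SE 0.09, adjusted p = 0.016). PERP lost its call when pig 1, 2, 3, 5 or 6 was left out, with adjusted p between 0.071 and 0.089. Only pig 7 had more PERP in OXY (0.33). Without pigs 4 and 7 PERP was called in PYL, with a change of -1.01 (limma adjusted p = 0.00031). The core partners of cadherins and desmosomes did not pass: CTNNB1, which couples cadherins to the cytoskeleton, had a change of 0.17 (adjusted p = 0.095), JUP, a catenin of desmosomes and adherens junctions, of -0.21 and DSP, the desmosomal plakin, of -0.08. Without pigs 4 and 7 the list held 4 genes called in OXY (beside 6.71% of all rows) and 8 in PYL (beside 5.98%). JUP (-0.35, adjusted p = 0.031) and DSP (-0.50, adjusted p = 0.010) were then called in PYL, and AMOT lost its call (-0.43, adjusted p = 0.056). Other partners called only then included EPCAM in PYL (-0.66, limma adjusted p = 0.0026) and CTNNAL1 in OXY (1.31, adjusted p = 0.0029). OCLN, the occludin of tight junctions, had a change of 0.39 (adjusted p = 0.35), with 1.42 and 1.46 in pigs 4 and 7 and at most 0.13 in the other pigs, and without pigs 4 and 7 the change was -0.0327.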

How the data were processed

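Total RNA of 7 OXY and 7 PYL samples was hybridized by the authors to Affymetrix gene expression arrays of the pig. Per their methods the arrays were processed with Robust Multichip Analysis in Expression Console. The deposited table holds linear intensities of 27460 rows, and no background correction or normalization was added here. The log2 values used here were taken from the deposited intensities. Precision is limited by the 7 pigs that gave the pairs of arrays.

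Of the rows, 11939 carried a single gene symbol, 416 several and 15105 none, and only single symbols named a gene. GEO's annotation can be old, and 58 of the 64 gene identifiers carried the same symbol in RefSeq. Both rows of GJC1 held the same values, as did both of CLDN14, and the rows of CDH7 differed in sign (0.06 and -0.15, neither called).

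OXY was compared with PYL by limma 3.58.1 in R 4.3.3 (lmFit and eBayes on all rows, pig as a block, Benjamini-Hochberg over all rows, threshold 0.05). A single gene was also tested by the exact two-sided sign-flip permutation test of its 7 within-pig differences (128 sign patterns). The block follows from both samples of a number coming from the same pig and from the repeated measures of the methods, and the correlation of their deviations from the group means ran from 0.017 (pig 7) to 0.621 (pig 4), which includes the level shift between both array sets, and from -0.027 (pig 1) to 0.619 (pig 4) within a set. On simulated data of 27460 rows, 50 rows were changed by each size between OXY and PYL. There limma called 40%, 88%, 100% and 100% of changes of 0.5, 1, 2 and 4 log2 units, with 11 false of 175 calls. No other row was changed, and the noise was drawn independently for each row. The real table had 1888 calls in OXY and 1226 in PYL, and pigs 4 and 7 deviated together in many genes. The simulated shares therefore need not hold for it.

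Named were the genes of simple epithelium (KRT8, KRT18, KRT19, KRT20, CDH17, TJP1, CLDN4, CLDN5, CLDN10, CLDN12, CLDN18, CLDN23, GJA1, GJB1, DSC2 and PKP2), up to 4 called genes of each family and direction, the 2 that missed the threshold most closely, and up to 3 called partners of each list and direction. Other genes were named after their values were seen. The genes and lists were chosen with earlier results of these data known. Alternatives covered the block, the scaling, dim rows, pigs left out, the array sets, array weights, the prior, a change of at least 1, the repeated-measures test and the mean of all rows of a symbol.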

Additional observations from a re-analysis of the deposited data

How the results depend on the processing

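KRT20, PCDH17 and PCDH12 kept their calls when each pig was left out in turn, when arrays were rescaled, and after Benjamini-Hochberg adjustment of the methods' repeated-measures test. Over the 64 genes the count higher in OXY was 2 in each fit without 1 pig. It was 0 without the pig block, 1 in pigs 1 to 3, 0 in pigs 4 to 7, 4 without pigs 4 and 7, and 0 with a change of at least 1, and each of the 3 rescalings made it 3, with GJD4 added. The count higher in PYL, 1 over 7 pigs, lay between 1 and 3 with 1 pig left out, the highest without pig 7 (KRT20, GJB1 and CDH17). It was 2 without the pig block, 2 after scaling to RPL4 and 2 without the dim rows (KRT20 and CDH17 each time), 3 in pigs 1 to 3, 0 in pigs 4 to 7, 5 without pigs 4 and 7, 3 with array weights, and 4 with the repeated-measures test unadjusted. Over all 27460 rows the counts in OXY and in PYL were 1888 and 1226, and 326 and 150 without the pig block. They were 1705 and 1232 without pig 7, 2305 and 989 after centering, and 1934 and 1180 after quantile normalization. Scaling to RPL4 gave 1895 and 985, and leaving out the dim rows gave 1857 and 1229 of 18307 rows. With array weights they were 2117 and 1611, and with the repeated-measures test unadjusted 3529 and 2958.

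Some changes that did not pass over 7 pigs turned their sign. In pigs 1 to 3 alone KRT19 was -0.0533, CLDN10 0.10, CLDN12 -0.15, CLDN18 -0.23, GJA1 0.39 and PKP2 -0.18. In pigs 4 to 7 alone KRT8 was 0.13, KRT18 0.0222, CLDN4 0.0238, CLDN5 -0.10 and CLDN23 0.25. Without pigs 4 and 7 CLDN12 was -0.0775, CLDN18 -0.14, GJA1 0.36 and PKP2 -0.0723, and with array weights GJA1 was 0.0072. With 1 pig left out CLDN5 ran from -0.0026 to 0.14, CLDN12 from -0.0334 to 0.15, CLDN18 from -0.0322 to 0.15, CLDN23 from -0.14 to 0.0302 and GJA1 from -0.34 to 0.17. The cause was not tested. Rescaling moved the median change of all rows by at most 0.04.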

Other observations

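Further lists that border on these families were measured. Of 16 other intermediate filament genes and keratin partners, none was more expressed in OXY (limma, beside 6.88% of all rows). In PYL 2 were more expressed (beside 4.46%). At an unadjusted p under 0.05 the counts were 0 and 3, beside 13% and 12.6% of all rows. LMNA, which encodes the A-type lamins of the nuclear envelope, had a change of -0.60 (SE 0.12, adjusted p = 0.016), and the neurofilament gene NEFM one of -0.46 (SE 0.06, adjusted p = 0.0017), from a dim row. Both were higher in PYL in all 7 pigs.

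Of 11 other genes of the cadherin superfamily, CDHR1 alone passed, in favour of PYL (beside 4.46% of all rows). It had 4.02 ± 0.29 in OXY and 4.67 ± 0.51 in PYL (SD, n = 7 each, limma adjusted p = 0.016). CDHR2, a cadherin of intestinal and renal microvilli, had a change of -0.40 and was higher in PYL in all 7 pigs, but did not pass (adjusted p = 0.12). RET, a receptor of enteric neurons, had a change of 0.23 over 7 pigs, where it did not pass, and was called in OXY without pigs 4 and 7 (0.48, limma adjusted p = 0.047).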
